A study of Mus musculus with 3 samples.

Results

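The 873 cells described here are the neuronal cells that the authors set apart as atypical and kept out of their comparison of genotypes. They are the cells whose entry in the deposited list of neuronal cells is not marked as retained. That list holds 11943 cells of the 17396 in the filtered table, and its other 11070 cells are called typical. The authors took the label from clusters of these same cells, 2 of which had reduced excitatory neuronal markers, so a gene that separates atypical from typical cells is a description and not a test. Each of the 3 libraries holds tdTomato-positive cells sorted from the medial prefrontal cortex (mPFC) of mice at postnatal day 5 (P5) on a C57BL/6 background. All 3 carried the *Rbp4-cre* transgene, which drives recombination in layer 5 pyramidal neurons, and a Cre-dependent tdTomato reporter. The wild-type library is Rbp4cre::tdTomato with no floxed *Tbr1* allele. The *Tbr1* layer5 heterozygous library (Tbr1f/+::Rbp4cre::tdTomato) carried 1 floxed allele of *Tbr1*, a T-box transcription factor of deep-layer cortical neurons, and the *Tbr1* layer5 homozygous library (Tbr1f/f::Rbp4cre::tdTomato) carried 2. The sort selects any cell in which the reporter was active, and each genotype has 1 library, with the number of mice behind it not given in the sources used here. Where 3 values stand in a row, they follow the order wild-type, heterozygous, homozygous. No value below has a replicate error, no p-value was computed, and the cells of a library were not used as replicates of a genotype.

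Cortical excitatory neurons release glutamate and are specified by transcription factors such as *Neurod2*, *Neurod6*, *Fezf2* and *Tbr1*. The spiny projection neurons of the striatum, which lies beneath the frontal cortex, release GABA and respond to dopamine. They are known for the phosphoproteins *Ppp1r1b* and *Arpp21*, the G protein subunit *Gng7*, retinoid receptors, and the peptides of the direct (*Tac1*) and indirect (*Penk*) pathways. *Malat1*, *Meg3* and *Xist* are long noncoding RNAs that stay largely in the nucleus.

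The atypical cells made up different shares of the neuronal cells in the 3 libraries. In the wild-type library they were 304 of 2082 neuronal cells, or 14.6% (95% exact binomial interval 13.1 to 16.2%, which like every interval below covers counting error only). The homozygous library held 462 of 4397, or 10.5% (9.62 to 11.5%), and the heterozygous library 107 of 5464, or 1.96% (1.61 to 2.36%). Over all filtered cells the shares were 6.14, 1.56 and 8.28%, which places the homozygous library above the wild-type one. The heterozygous share lay below both others beyond counting error, but how much 2 libraries of 1 genotype would differ is unknown. The fewest UMIs (unique molecular identifiers, which count captured RNA molecules) in an atypical cell also differed (1534, 1203 and 1041), and the part of this limit in the shares was not tested. Of the 873 cells, 11 shared a barcode with a cell of another library, as did 281 of all 17396 cells.

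Depth did not set the atypical cells apart within a library. Their median was 2039 UMIs against 1902 in typical wild-type cells, 1865 against 1743 in the heterozygous library and 1459 against 1376 in the homozygous library. Median genes per cell were 934.5 against 875.5, 824 against 837 and 720.5 against 713 in the same order. Ribosomal UMIs were a larger part of the atypical cells in each library, with medians of 26.5, 19.1 and 22.5% against 23.8, 17.8 and 19.2%. Mitochondrial UMIs differed most in the heterozygous library, at 19.5% in atypical and 15.4% in typical cells, against 10.1 and 10.4% for wild-type and 13.6 and 12.5% for homozygous. Summed, the atypical cells gave 675832, 216259 and 745153 UMIs, so heterozygous values are the least precise.

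A small group of genes separated the atypical cells in every library. UMIs were summed over atypical and over typical cells and divided by the total to give counts per 1000000 UMIs (CPM), and the log2 ratio of atypical over typical CPM was taken within each library. The mean over the 6 sums reached 50 CPM for 2177 genes. Of these 35 (1.61%) were at least 2-fold higher in atypical cells of the wild-type library, 36 (1.65%) in heterozygous and 35 (1.61%) in homozygous cells. At least 2-fold lower were 28 (1.29%), 152 (6.98%) and 41 (1.88%). These counts ask for no interval, and the heterozygous atypical sum is the smallest. With an interval beyond 0 required, over all genes with a UMI, 179 (1.24%), 238 (1.63%) and 313 (2.15%) were lower. The heterozygous library did not stand out by that rule. The wild-type split of 35 higher and 28 lower became 24 and 62 with TMM factors, another scaling of the sums, and 28 and 65 with the larger of the 2 groups of atypical cells described further on. In all 3 libraries 17 genes (0.781%) were higher and 15 (0.689%) were lower, and for each of these 32 genes the counting interval lay on the same side of 0 in all 3. The filter takes in the atypical sums, and 10 of the 17 higher genes, among them *Rxrg*, *Pcp4l1*, *Ppp1r1b* and *Xist*, averaged under 50 CPM over the typical sums, as 7 of the 15 lower genes did over the atypical sums. Such genes passed through the cells in which they are high, so the counts describe and support nothing. The median ratio of the 2177 genes was −0.03, −0.09 and −0.09. Across these genes the ratios of 2 libraries had a Pearson r between 0.588 and 0.689, a description over genes that share cells and depth.

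*Arpp21*, a cAMP-regulated phosphoprotein, was at 698 CPM in atypical and 122 CPM in typical wild-type cells, at 846 and 87.8 CPM in the heterozygous library, and at 1095 and 107 CPM in the homozygous library. The log2 ratios were 2.52 (2.33 to 2.71), 3.27 (3.03 to 3.5) and 3.35 (3.20 to 3.5). The lowest atypical level was thus far above the highest typical level. *Arpp21* lies on chromosome 9 (112065091 to 112235938, minus strand, GRCm38). *Gng7* (chromosome 10, 80948624 to 81014945, minus strand), a G protein gamma subunit of the striatal cAMP pathway, was at 327 against 83.4 CPM, 795 against 93.7 CPM and 568 against 104 CPM in turn. Its log2 ratio was 1.97 (1.72 to 2.23), 3.09 (2.84 to 3.32) and 2.45 (2.27 to 2.63), highest in the heterozygous library. Both genes were among those used to propose these cells as a group, as was *Meg3*, which is described with the nuclear RNAs.

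Genes of striatal projection neurons were higher as a group. Of 27 genes of this list with a UMI, 19, 18 and 20 were at least 2-fold higher with an interval above 0, and 0 were lower in any library. Over all genes with a UMI the same rule called 4.69, 2.2 and 2.63% higher. The list median was 2.62, 2.89 and 2.56 on the log2 scale, against 0.17, 0.07 and −0.01 for all genes with a UMI. Among the 15 members called in all 3 libraries were *Ppp1r1b*, *Adora2a*, *Penk*, *Tac1*, *Pde10a*, *Pde1b*, *Foxp1*, *Foxp2*, *Isl1*, *Ebf1*, *Rxrg*, *Rarb*, *Gng7* and *Arpp21*. For this list and the others, the share of all genes called in all 3 libraries by this rule was not computed. The list holds *Arpp21* and *Gng7*, which were used to propose the cells. It was also chosen with earlier results of these data known, so its counts and median are a description.

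**Figure D1:**
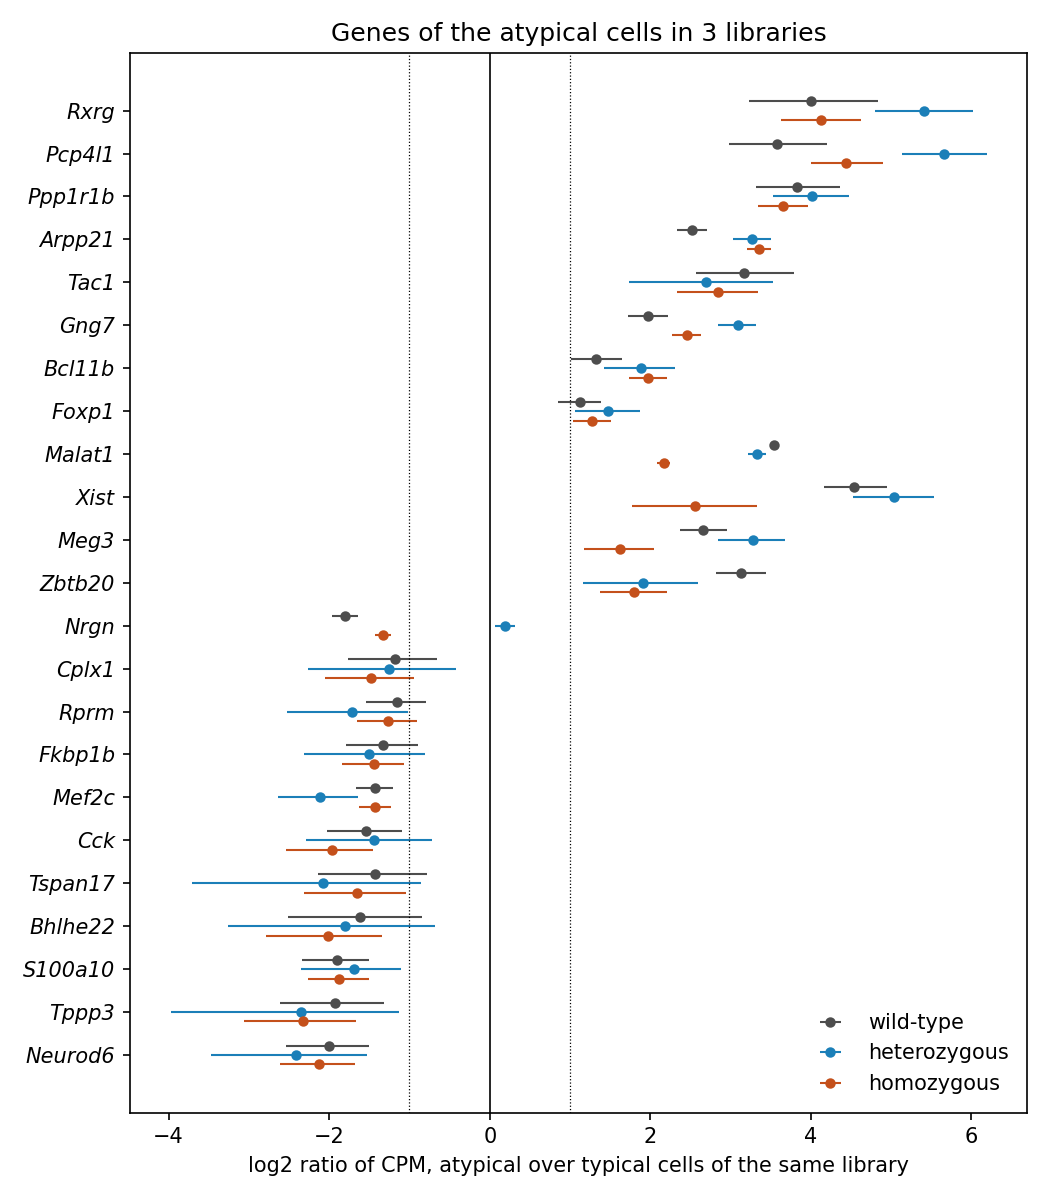
The log2 ratio of CPM in atypical over typical cells of the same library (x axis, with 95% counting intervals as bars) for 23 genes, with 1 color per library and dotted lines at 2-fold. *Rxrg*, *Pcp4l1* and *Ppp1r1b* stand at 3.58 or more in every library, *Neurod6* at −2.0 or less, and *Nrgn* changes side in the heterozygous library.

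The signaling genes of the list gave clear ratios. *Ppp1r1b*, which encodes the dopamine- and cAMP-regulated inhibitor of protein phosphatase (chromosome 11, 98348404 to 98357796, plus strand), was at 170 against 12 CPM, 240 against 14.9 CPM and 290 against 23.0 CPM. Its log2 ratios were 3.83 (3.31 to 4.36), 4.01 (3.53 to 4.48) and 3.65 (3.34 to 3.97), with intervals that overlap among the libraries. The phosphodiesterases that break down cyclic nucleotides were higher too, *Pde10a* by 2.88, 3.39 and 2.35 and *Pde1b* by 2.36, 2.69 and 2.05. *Adora2a*, the adenosine receptor of indirect-pathway neurons, had ratios of 3.70, 3.82 and 4.88 from 12, 5 and 36 UMIs.

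The peptide genes of both striatal output pathways were higher in the atypical cells. *Tac1*, the precursor of substance P, was at 93.2, 60.1 and 87.2 CPM in atypical cells against 10.4, 9.31 and 12.2 CPM in typical cells, with log2 ratios of 3.17 (2.57 to 3.79), 2.69 (1.73 to 3.53) and 2.84 (2.34 to 3.34). *Penk*, the precursor of enkephalins, was at 16.3, 41.6 and 52.3 CPM against 2.18, 2.11 and 3.46 CPM, with ratios of 2.90 (1.45 to 4.42), 4.30 (3.0 to 5.48) and 3.92 (3.12 to 4.76). The dopamine receptor *Drd1* had 3, 1 and 7 UMIs in atypical cells, with ratios of 1.22 (−1.36 to 3.35), 2.42 (−3.03 to 5.27) and 2.66 (1.0 to 4.26). At this depth its difference was detectable in the homozygous library alone. *Drd2*, the other main dopamine receptor gene of these neurons, is not among the genes of the filtered table and was not analysed here.

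Retinoid receptors of the list had large ratios. *Rxrg*, a retinoid X receptor (chromosome 1, 167598384 to 167639623, plus strand), was at 82.9 against 5.18 CPM, 208 against 4.90 CPM and 149 against 8.56 CPM. The log2 ratios were 4.0 (3.23 to 4.83), 5.41 (4.80 to 6.02) and 4.12 (3.63 to 4.63). *Rarb*, a retinoic acid receptor, had ratios of 3.57, 5.42 and 3.21 from 24, 8 and 25 UMIs.

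Transcription factors of striatal development followed. *Foxp1* was at 238 against 110 CPM, 259 against 92.9 CPM and 258 against 107 CPM, and *Foxp2* had ratios of 3.19, 2.45 and 2.29. *Isl1* and *Ebf1*, factors of direct-pathway neurons, had 16, 3 and 12 UMIs and 12, 3 and 19 UMIs in atypical cells, with ratios of 3.44 (2.13 to 4.87), 6.18 (3.05 to 9.76) and 3.44 (2.07 to 4.87) for *Isl1* and 3.44, 3.59 and 3.47 for *Ebf1*. The wide heterozygous interval of *Isl1* rests on 3 UMIs. *Zfp503* had ratios of 3.76 and 4.03 in the wild-type and homozygous libraries, and 1 UMI in heterozygous atypical cells, with an interval of −2.03 to 6.93. *Bcl11b*, a zinc-finger factor shared by striatal and subcortically projecting cortical neurons, was at 183 against 73.0 CPM, 217 against 59.0 CPM and 299 against 76.4 CPM, or 1.33 (1.01 to 1.64), 1.88 (1.42 to 2.31) and 1.97 (1.73 to 2.20).

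Not every striatal gene was 2-fold higher. *Arpp19*, a phosphoprotein found in many cell types, had ratios of 0.13 (−0.14 to 0.39), −0.21 (−0.70 to 0.24) and 0.08 (−0.14 to 0.30). *Adcy5*, an adenylyl cyclase, had ratios of 0.33 (−0.66 to 1.22), 0.10 (−1.79 to 1.48) and 0.16 (−0.80 to 1.0) from 13, 4 and 13 UMIs, and *Gnal*, its G protein partner, 0.33 (−0.02 to 0.66), 0.91 (0.41 to 1.38) and 0.93 (0.65 to 1.20). *Adcy5* and *Gnal* were picked after their values were seen. The intervals of *Adcy5* reach up to about 2-fold or more in every library, so a difference of that size was not detectable at this depth.

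Genes that the striatal list does not hold were also higher. *Pcp4l1*, a small neuronal protein related to *Pcp4*, was at 114 against 9.54 CPM, 296 against 5.86 CPM and 215 against 9.88 CPM, with log2 ratios of 3.58 (2.98 to 4.20), 5.66 (5.13 to 6.19) and 4.44 (4.01 to 4.90). *Pcp4*, a calmodulin-binding protein, was at 1949 against 994 CPM, 4351 against 807 CPM and 2582 against 750 CPM, with ratios of 0.97, 2.43 and 1.78. The wild-type ratio of *Pcp4* therefore fell just short of 2-fold. *Caln1*, which encodes a calmodulin-like protein, was at the edge of the rule with 1.16, 1.06 and 1.0. *Abat*, *Carhsp1*, *Lypd1* and 1110017D15Rik were also at least 2-fold higher in all 3 libraries, with ratios of 1.25, 1.20 and 1.13 for *Abat*, the enzyme that breaks down GABA, and of 1.31, 3.11 and 1.58 for *Lypd1*. These 4 were named after their values were seen.

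Among GABA genes outside the striatal list, 2 are given here. *Slc32a1* was higher in all 3 libraries and *Gad2* in the wild-type and homozygous ones. *Gad1*, which the list of inhibitory interneuron genes also holds, is not reported here. *Slc32a1*, the vesicular transporter of GABA, was at 44.4 against 17.4 CPM, 46.2 against 17.3 CPM and 33.6 against 16.6 CPM, with ratios of 1.35 (0.67 to 2.0), 1.42 (0.34 to 2.33) and 1.01 (0.32 to 1.66). *Gad2*, a GABA-synthesizing enzyme, had ratios of 2.03 (1.47 to 2.57), 1.30 (−0.17 to 2.47) and 2.3 (1.70 to 2.89). Of the 20 genes of inhibitory interneurons 6, 2 and 4 were higher and 0, 0 and 1 lower, beside 4.69, 2.2 and 2.63% of all genes with a UMI higher, and *Slc32a1* alone was called in all 3 libraries. *Sst*, the peptide that marks a class of cortical interneurons, had ratios of 0.29 (0.06 to 0.52), −0.72 (−1.38 to −0.13) and −0.32 (−0.62 to −0.04). *Npy*, another interneuron peptide, had ratios of 0.39 (0.17 to 0.60), −0.25 (−0.68 to 0.15) and 0.01 (−0.17 to 0.18). *Sst* thus lay above 0 in the wild-type library and below 0 in both mutant libraries.

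**Figure D2:**
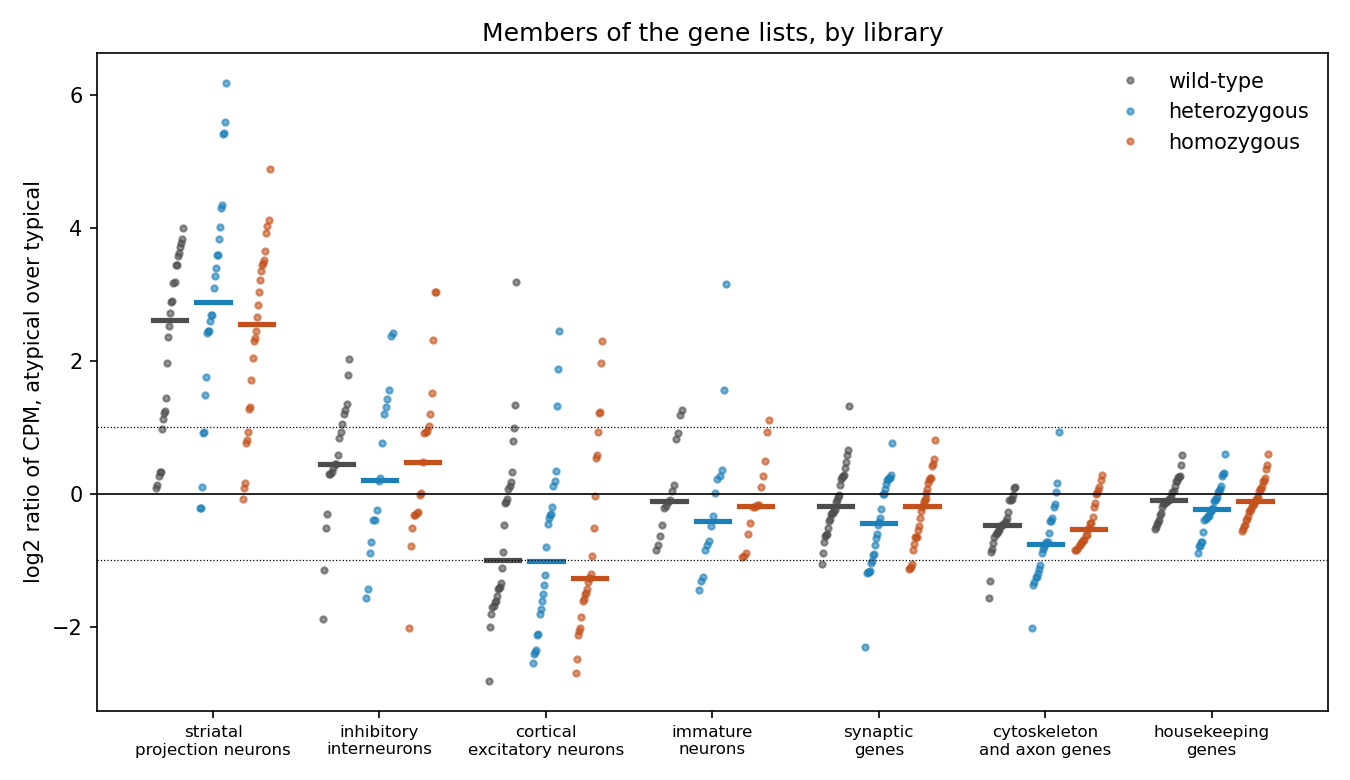
Each point is a gene of the list named below it, placed at its log2 ratio of CPM in atypical over typical cells (y axis) and colored by library, with a thick line at the list median and dotted lines at 2-fold. The striatal medians are 2.62, 2.89 and 2.56, the cortical excitatory medians −0.99, −1.02 and −1.26, and the housekeeping medians −0.10, −0.23 and −0.11.

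Genes of cortical excitatory neurons were lower, and reduced excitatory markers, beside high levels of housekeeping genes, were the grounds the authors gave for setting the cells apart, so these values describe the choice. Of 26 such genes 12, 9 and 13 were at least 2-fold lower with an interval below 0, and 2, 3 and 4 were higher. Over all genes with a UMI the rule called 1.24, 1.63 and 2.15% lower and 4.69, 2.2 and 2.63% higher. The list medians were −0.99, −1.02 and −1.26. Among the 8 members lower in all 3 libraries were *Neurod6*, *Neurod2*, *Slc17a7*, *Fezf2*, *Rorb*, *Mef2c* and *Bhlhe22*, and the 2 higher in all 3 were *Bcl11b* and *Foxp2*, the second of which the striatal list also holds.

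*Neurod6*, a bHLH factor of cortical excitatory neurons (chromosome 6, 55677822 to 55681263, minus strand), was at 50.3 against 201 CPM, 46.2 against 246 CPM and 55.0 against 240 CPM. Its ratios were −2.0 (−2.54 to −1.50), −2.41 (−3.47 to −1.53) and −2.12 (−2.61 to −1.68), so all 3 atypical sums lay far below all 3 typical sums. *Mef2c*, a MADS-box transcription factor, was at 253 against 682 CPM, 162 against 704 CPM and 299 against 803 CPM. *Bhlhe22*, a bHLH factor of projection neurons, had ratios of −1.62, −1.81 and −2.02. *Fezf2*, a factor of subcerebral projection neurons, had ratios of −1.69, −2.37 and −2.69 from 9, 2 and 6 UMIs in atypical cells.

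The next genes rest on small counts. *Slc17a7*, the vesicular glutamate transporter, was at 11.8 against 38.4 CPM, 9.25 against 46.9 CPM and 16.1 against 38.5 CPM, or −1.70 (−2.94 to −0.68), −2.34 (−5.39 to −0.48) and −1.26 (−2.23 to −0.43). *Neurod2* had 9 and 11 UMIs in wild-type and homozygous atypical cells, with ratios of −1.63 and −1.57, and 0 UMIs in heterozygous ones, where a floor of 3 counts puts the ratio at −1.51 or lower. *Tbr1*, the gene targeted in the mutants, had 7, 2 and 3 UMIs in atypical cells of the wild-type, heterozygous and homozygous libraries, with ratios of −1.41 (−2.76 to −0.31), −1.73 (−4.78 to 0.13) and −2.48 (−4.77 to −0.90). Between typical cells *Tbr1* differed from the wild-type library by 0.16 (−0.17 to 0.50) for heterozygous and −0.30 (−0.68 to 0.09) for homozygous on the log2 scale, so neither mutant library differed from wild-type beyond counting error. A count of 3′ ends outside the deleted exons does not check the recombination.

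Other genes outside the excitatory list were lower in all 3 libraries. *Tppp3*, a tubulin-binding protein, had ratios of −1.93 (−2.62 to −1.31), −2.35 (−3.98 to −1.12) and −2.32 (−3.06 to −1.67). *S100a10*, a calcium-binding protein family member, was at 76.9 against 289 CPM, 106 against 343 CPM and 81.9 against 299.9 CPM, and *Cck*, the precursor of cholecystokinin, at 62.1 against 181 CPM, 69.4 against 189 CPM and 41.6 against 163 CPM. *Cplx1*, a regulator of vesicle release, had ratios of −1.19, −1.26 and −1.48, *Fkbp1b* −1.33, −1.51 and −1.44, *Tspan17* −1.42, −2.08 and −1.65, and *Rprm* −1.15, −1.72 and −1.27. *Akap12*, *Mturn*, *Osbpl1a* and *Sncb* complete the 15 genes with *Neurod6*, *Mef2c*, *Bhlhe22* and *Rorb*.

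*Nrgn*, a calmodulin-binding postsynaptic protein of excitatory neurons, did not follow the others. The authors name it, with *Neurod6*, as an excitatory marker with lower levels in the atypical cells. In the sums used here that held for *Nrgn* in the wild-type and homozygous libraries alone. *Nrgn* was at 485 against 1692 CPM in the wild-type library and at 1082 against 2722 CPM in the homozygous library, with ratios of −1.80 (−1.97 to −1.64) and −1.33 (−1.44 to −1.23). In the heterozygous library it was at 2354 against 2062 CPM, a ratio of 0.19 (0.06 to 0.32), and 93.5% of the 107 atypical cells there held a UMI of *Nrgn* against 60.5% of 304 in the wild-type and 73.6% of 462 in the homozygous library. The difference between libraries was not tested.

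Other gene groups are given by the same rule, which called 4.69, 2.2 and 2.63% of all genes with a UMI higher and 1.24, 1.63 and 2.15% lower. None of the 27 housekeeping genes was past 2-fold in any library, and the list medians were −0.10, −0.23 and −0.11. Their summed level was lower in atypical cells, at 56134, 48054 and 52439 CPM against 61543, 60366 and 58396 CPM. Intervals lay above 0 for 8, 3 and 8 of them and below 0 for 11, 13 and 12. In CPM over all UMIs this list thus did not show the high housekeeping levels that the authors describe, and their own genes may differ from it. The denominators differ too, since the authors removed mitochondrial and ribosomal genes before they normalized the neuronal cells. With the genes of the authors' neuronal table as denominator, the median ratio of genes of at least 50 CPM rose by 0.04, 0.12 and 0.10. Synaptic genes (28) had 1, 0 and 0 members higher and 1, 5 and 2 lower, with medians of −0.18, −0.44 and −0.18. Cytoskeleton and axon genes (24) had 0 higher and 1, 8 and 0 lower with medians of −0.47, −0.75 and −0.52. *Gap43*, a protein of growth cones, had ratios of −0.65, −1.25 and −0.62. Immature neuron genes (14) had 2, 1 and 1 higher and 0, 3 and 0 lower, among them *Stmn2*, a microtubule regulator of growing axons, at 2002 against 3591 CPM, 1064 against 2895 CPM and 1449 against 2780 CPM. The summed levels of the cytoskeleton list were lower in atypical cells of every library, at 9437, 6626 and 8659 CPM against 13071, 11926 and 12664 CPM. None of the 82 ribosomal protein genes and none of the 13 mitochondrial genes passed 2-fold, with medians of 0.18, 0.15 and 0.28 and of −0.12, 0.27 and 0.11. Intervals lay above 0 for 59, 43 and 75 of the ribosomal protein genes and below 0 for 7, 2 and 0. For the mitochondrial genes they lay above 0 for 0, 10 and 8 and below 0 for 9, 0 and 0.

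Marker lists of other cell types are given by the same rule, which called 4.69, 2.2 and 2.63% of all genes with a UMI higher and 1.24, 1.63 and 2.15% lower. Astrocyte and radial glia genes (18) had 0, 2 and 0 members higher and 0, 1 and 2 lower, oligodendrocyte lineage genes (12) 1, 0 and 0 higher and 0, 1 and 0 lower, endothelial genes (12) 0, 0 and 1 higher, mural genes (9) 0, 0 and 1 higher, meningeal genes (10) 2, 0 and 0 higher, and cycling genes (12) 1, 0 and 0 higher. Microglia and macrophage genes (13) had 5, 0 and 1 higher, from a summed 157 CPM in wild-type atypical cells against 83.1 CPM in typical cells and 235 CPM in empty droplets. Immediate early and stress genes (24) had 3, 3 and 3 higher and 0, 1 and 0 lower. The part of other cell types in the values above was not tested.

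Hemoglobin stood out in the homozygous library. The blood list summed to 997 CPM in homozygous atypical cells against 85.8 CPM in typical ones, and *Hba-a1* had a ratio of 3.89 (3.65 to 4.12), whereas in the wild-type and heterozygous libraries the ratios were 0.22 (−0.16 to 0.59) and 0.78 (−1.52 to 2.38). A single cell held 389 of the 743 hemoglobin UMIs, or 52.4%, and 52 of the 462 cells held any. Without the atypical cell richest in hemoglobin in each library, the counts of genes higher in all 3 libraries stayed at 17, and the lower count was 17 in place of 15.

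Free RNA was approximated from the barcodes of at least 100 and fewer than 500 UMIs, here called empty droplets. Whether some of these barcodes hold cells of low RNA content was not tested. The striatal list summed to 2686, 3528 and 3629 CPM in atypical cells, to 894, 855 and 964 CPM in typical cells and to 946, 969 and 1099 CPM in empty droplets. Striatal genes in typical cells were thus just below the level of the droplets, and in atypical cells well above it. Subtraction of 10% of the UMIs with the droplet profile left all 17 higher genes at least 2-fold higher and 14 of the 15 lower genes at least 2-fold lower, with no UMIs left for *Osbpl1a* in the heterozygous library.

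The atypical cells were also described in 2 groups. The deposited lists carry no cluster names, so the 873 cells were split by k-means with k = 2 on 20 principal components, which gave a larger group of 768 cells, here called Arpp21/Ppp1r1b cells after their leading genes, and a smaller group of 105 Malat1/Xist cells. Neither received a cell type name, and k-means returns as many groups as it is asked for, so the number of groups is not a result. The smaller group was 78 of 304 atypical cells in the wild-type library (25.7%, 20.8 to 31.0%), 12 of 107 in the heterozygous (11.2%, 5.93 to 18.8%) and 15 of 462 in the homozygous library (3.25%, 1.83 to 5.30%), so most of it came from 1 library. With the cells centered within libraries the homozygous count was 28 in place of 15. The first and the second component held 1.06 and 0.911% of the variance.

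**Figure D3:**
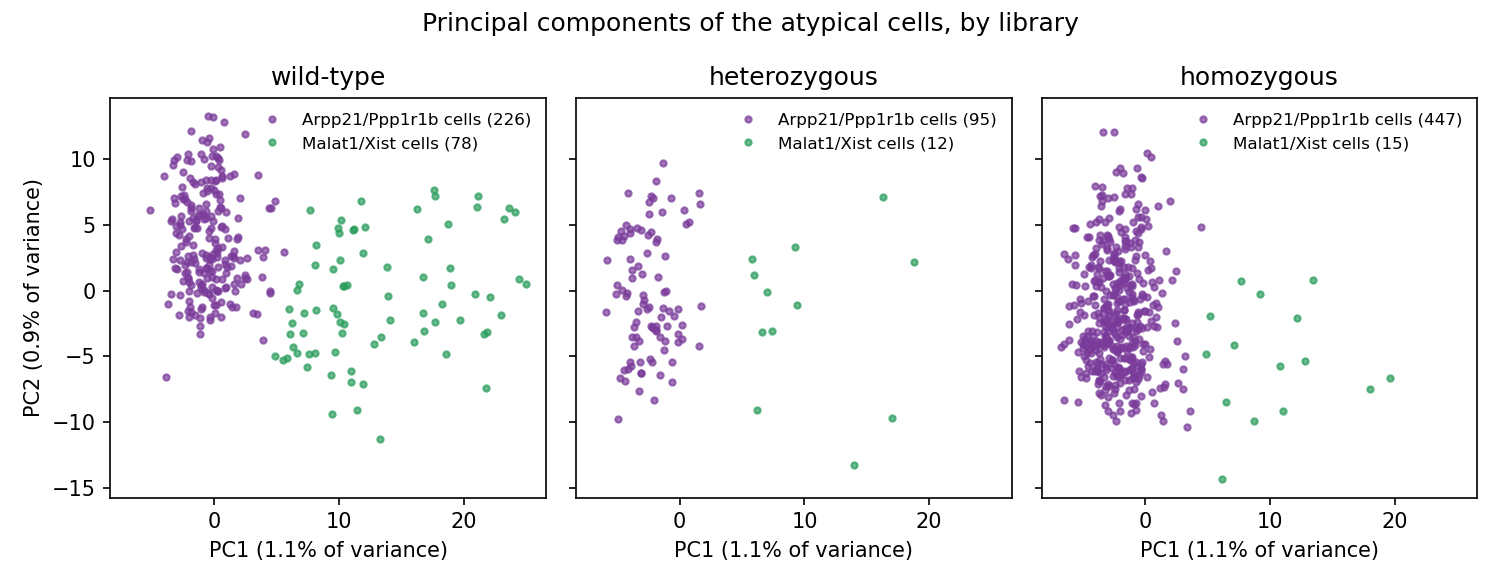
Scores of the 873 atypical cells on the first (x axis) and second (y axis) principal component, in 1 panel per library, colored by group. The Malat1/Xist cells (78, 12 and 15) spread to the right along the first component, and the Arpp21/Ppp1r1b cells (226, 95 and 447) form a narrow band at its left.

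The 2 groups had similar depth but different composition. Within libraries the Malat1/Xist cells had medians of 2007, 1857.5 and 1428 UMIs against 2049, 1865 and 1462 in the Arpp21/Ppp1r1b cells, and of 1086.5, 943 and 849 genes against 892, 806 and 717. The Malat1/Xist cells had lower mitochondrial shares, with medians of 6.80, 14.4 and 9.99% against 10.5, 19.7 and 13.6%, and lower ribosomal shares of 20.2, 15.1 and 14.9% against 27.5, 19.4 and 22.6%. Of 2409 genes compared between the groups, 417 were at least 2-fold higher in the Malat1/Xist cells and 80 in the Arpp21/Ppp1r1b cells. These counts are over UMIs summed across libraries, and since 78 of the 105 Malat1/Xist cells are wild-type and 447 of the 768 others homozygous, library and group are mixed in them. Within the libraries 354, 258 and 269 of the 417 and 61, 44 and 49 of the 80 genes were past 2-fold in the same direction, with a group at 0 UMIs counted as past it, and the last 2 libraries have only 12 and 15 Malat1/Xist cells. Over all 2409 genes, 469, 570 and 501 were past 2-fold higher in the Malat1/Xist cells and 108, 424 and 437 in the others. The sums across libraries hold these same cells, so the overlap is partly built in and is no replication. The genes that led the smaller group were *Xist*, *Btg2*, *Malat1*, *Gadd45g*, *Ttc14*, *Igfbp5*, *Notch2*, *Meg3*, *Pax6* and *Ogt*, and those that led the larger were *Rxrg*, *Pcp4l1*, *Ppp1r1b*, *Tac1*, *Arpp21*, *Hba-a1*, *Caln1*, *Clec2l*, *Gng7* and *Pcp4*. *Hba-a1* leads there through few cells, as given above, and in the Malat1/Xist cells 29 of the 31 UMIs of *Igfbp5*, 37 of 39 of *Notch2* and 21 of 24 of *Pax6* came from the wild-type library. These genes took part in the split and are its description.

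Most of the *Malat1* of the atypical cells lay in the smaller group. *Malat1* (chromosome 19, 5795690 to 5802672, minus strand) was at 13185 against 1130 CPM, 3505 against 348 CPM and 2663 against 594 CPM, with ratios of 3.55, 3.33 and 2.16. The Malat1/Xist cells held 90.2, 92.2 and 55.4% of those UMIs, at levels of 46637, 29325 and 47481 CPM. The filtered cells outside the neuronal table were at 33113, 14926 and 26359 CPM and empty droplets at 3188, 1932 and 1909 CPM. The typical neuronal cells, at 348 to 1130 CPM, were therefore below the droplets, and the Malat1/Xist cells were nearer to the cells outside the neuronal table. With the Arpp21/Ppp1r1b cells alone, the ratios of *Malat1* were 0.62, −0.18 and 1.04. A UMI of it was seen in 69.0, 36.8 and 35.6% of these cells against 71.1, 34.0 and 38.7% of typical cells. The most in 1 cell was 160, 6 and 148 UMIs, against 120, 71 and 190 in typical cells. The ratios above 0 thus did not come with a larger share of cells holding *Malat1*.

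*Meg3* and *Xist* took part in the same split. *Meg3* (chromosome 12, 109541001 to 109571726, plus strand), an imprinted noncoding RNA of neurons, was at 314 against 49.6 CPM, 273 against 28.2 CPM and 85.9 against 28.0 CPM, with ratios of 2.66 (2.37 to 2.96), 3.27 (2.84 to 3.68) and 1.62 (1.18 to 2.04). The Malat1/Xist cells held 75.5, 94.9 and 35.9% of its UMIs, and 1 heterozygous cell held 35 of 59. In the Arpp21/Ppp1r1b cells alone the ratios were 1.06, −0.86 and 1.02. The heterozygous one (−3.14 to 0.71) rests on 3 UMIs, so *Meg3* was not detectably higher there. The homozygous one leans on 1 cell with 20 UMIs of *Meg3*. In that library 4.47% of the Arpp21/Ppp1r1b cells held a UMI of it, against 3.51% of typical cells. The Malat1/Xist cells were at 929, 2349 and 993 CPM of *Meg3*, and the filtered cells outside the neuronal table at 1470, 1100 and 1553 CPM. *Xist*, the RNA of X-chromosome inactivation, had ratios of 4.54, 5.03 and 2.56. The Malat1/Xist cells held 92.6, 100 and 53.8% of its 296, 57 and 26 UMIs. A UMI of it was seen in 60.3, 100 and 33.3% of those cells, so not all of them held *Xist*. The level of *Xist* was 1590, 2391 and 604 CPM in the Malat1/Xist cells and 1399, 828 and 752 CPM in the cells outside the neuronal table. *Zbtb20*, a zinc-finger factor, was higher in both groups, at 266, 62.4 and 88.6 CPM in the Arpp21/Ppp1r1b cells and 522, 294 and 216 CPM in the Malat1/Xist cells against 37.9, 23.3 and 26.7 CPM in typical cells. Of 10 nuclear and long noncoding RNAs 4, 3 and 4 were higher in atypical cells and 0 lower, beside 4.69, 2.2 and 2.63% of all genes with a UMI higher.

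**Figure D4:**
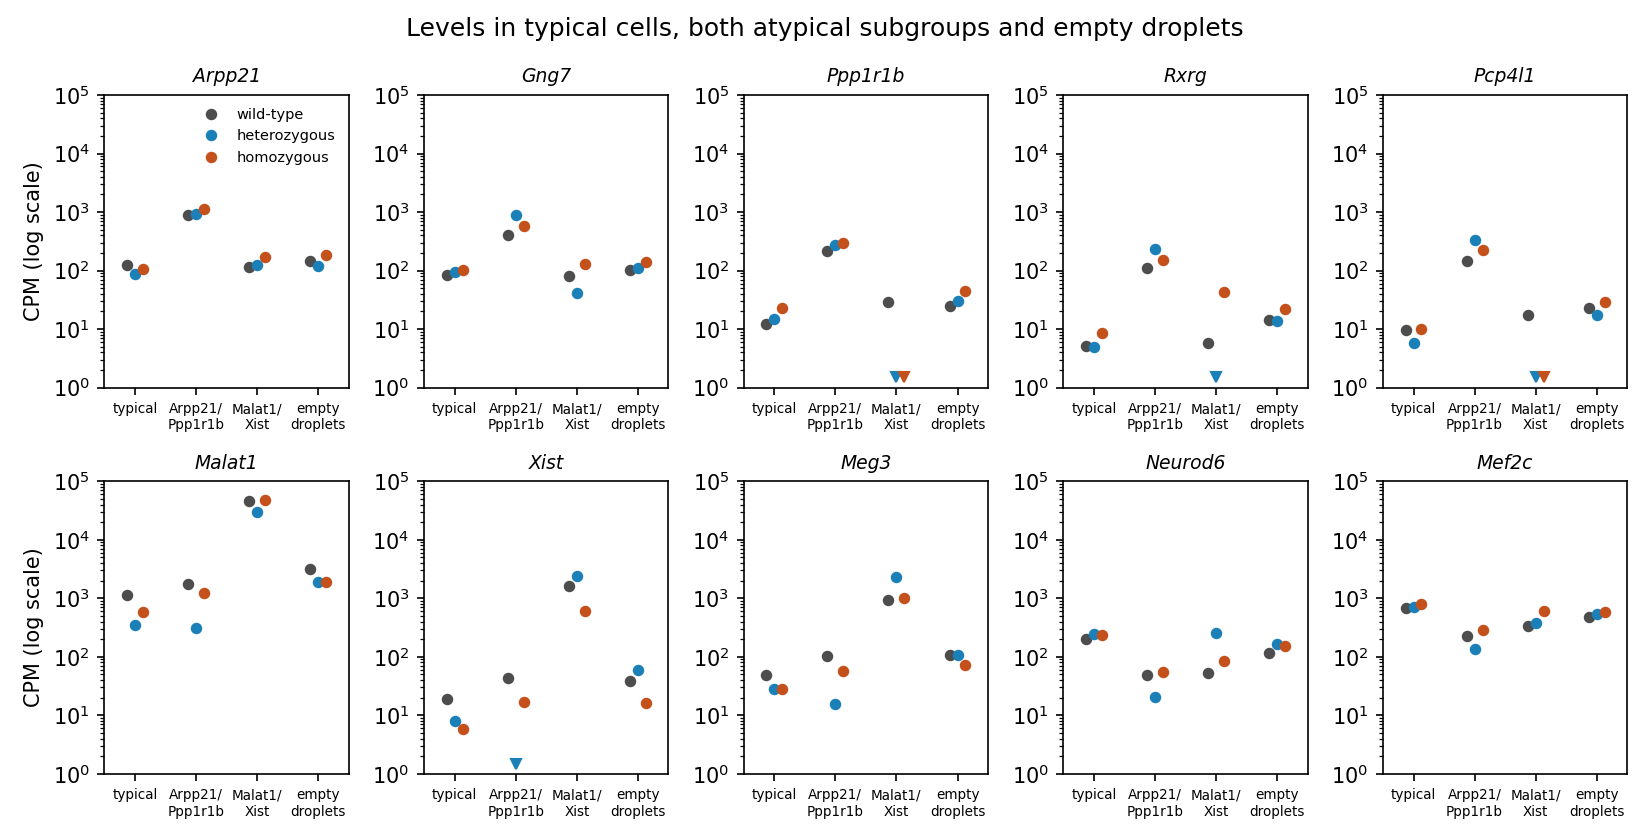
CPM on a log axis for 10 genes in typical cells, Arpp21/Ppp1r1b cells, Malat1/Xist cells and empty droplets, with 1 point per library and a triangle at the foot of the panel for 0 UMIs. *Arpp21* is at 898, 935 and 1125 CPM in the Arpp21/Ppp1r1b cells and at 116, 126 and 173 CPM in the Malat1/Xist cells, and *Malat1* has the opposite order.

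Summed over their list, striatal genes were higher in the larger group. The striatal list summed to 3166, 3809 and 3705 CPM in the Arpp21/Ppp1r1b cells and to 1283, 1259 and 1252 CPM in the Malat1/Xist cells, the second near the empty droplets. Single members varied. *Rxrg* was at 109, 234 and 152 CPM in the first and 5.80, 0 and 43.2 CPM in the second. *Foxp2* was at 69.5, 31.2 and 40.2 CPM and at 40.6, 0 and 43.2 CPM, the second from 7, 0 and 1 UMIs. Typical cells had 6.81, 5.09 and 8.23 CPM of *Foxp2*. *Arpp21* had a UMI in 78.3, 76.8 and 78.1% of the Arpp21/Ppp1r1b cells (median depths 2049, 1865 and 1462 UMIs) and in 21.4, 14.9 and 14.7% of typical cells (1902, 1743 and 1376 UMIs). Thinned to 1000 UMIs a cell, which left out none of the 11943 cells, the shares were 55.3, 54.7 and 62.9% against 10.2, 8.23 and 10.3%. At least 3 different striatal genes were seen in 82.7% (77.2 to 87.4%), 87.4% (79.0 to 93.3%) and 76.7% (72.5 to 80.6%) of the Arpp21/Ppp1r1b cells, in 35.9, 25 and 33.3% of the Malat1/Xist cells and in 22.3, 18.2 and 14.7% of typical cells. The split into groups used these same cells, so the shares describe it.

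UMIs of *Tac1* and of *Penk* or *Adora2a* were too sparse to show whether the same cells held them. Of the 768 Arpp21/Ppp1r1b cells 95 had a UMI of *Tac1* and none of *Penk* or *Adora2a*, 82 the reverse, 14 had both and 577 neither. In the homozygous library these were 46, 55, 9 and 337 of 447 cells, in the wild-type library 40, 17, 3 and 166 of 226, and in the heterozygous library 9, 10, 2 and 74 of 95. With most cells at 0 for all of these genes, absence of a UMI does not show absence of expression.

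The excitatory genes did not divide the groups in the same way. *Neurod6* was at 49.6, 20.8 and 54.0 CPM in the Arpp21/Ppp1r1b cells and at 52.2, 252 and 86.3 CPM in the Malat1/Xist cells, the heterozygous and homozygous values from 6 and 2 UMIs, against 118, 164 and 154 CPM in empty droplets. *Mef2c* was at 226, 135 and 289 CPM and at 331, 378 and 604 CPM in the same order. The whole excitatory list summed to 2911, 4449 and 3892 CPM and to 2408, 3482 and 3755 CPM, against 4493, 5194 and 6007 CPM in typical cells. Members varied in the wild-type library. *Slc17a7* was at 11.9 and 11.6 CPM there, against 38.4 CPM in typical cells. *Fezf2* was at 3.97 and 40.6 CPM, from 2 and 7 UMIs, against 43.0 CPM in typical cells. All 15 genes lower in all 3 libraries remained at least 2-fold lower with the Arpp21/Ppp1r1b cells alone, whereas 14 of the 17 higher genes did so.

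Differences between genotypes were set side by side for atypical and typical cells, with the wild-type library shared by both mutant comparisons. *Calm2*, a calmodulin gene, was higher than in the wild-type library by 0.64 (0.49 to 0.79) in heterozygous and 0.81 (0.70 to 0.91) in homozygous atypical cells, and by 0.74 (0.70 to 0.77) and 0.83 (0.79 to 0.87) in typical cells. *Kif1a*, an axonal motor, differed by −0.95 (−1.36 to −0.56) and −0.68 (−0.91 to −0.45) in atypical and by −0.65 and −0.62 in typical cells. For these 2 genes the intervals of both kinds of cell overlap. *Mgst3*, a microsomal glutathione transferase, was higher by 1.44 (1.22 to 1.67) and 0.68 (0.48 to 0.87) in atypical and by 0.35 (0.29 to 0.41) and 0.39 (0.33 to 0.46) in typical cells, and these intervals did not overlap. With the Arpp21/Ppp1r1b cells alone it was 1.40 (1.15 to 1.64) and 0.57 (0.37 to 0.78), and the second of these overlaps the typical interval. *Mef2c* differed by −0.64 (−1.21 to −0.11) in heterozygous atypical cells and by 0.05 (−0.02 to 0.11) in typical ones, and by −0.74 (−1.42 to −0.12) with the Arpp21/Ppp1r1b cells alone. Of the 16 genes compared in this way, *Mgst3* in both mutant libraries and *Mef2c* in the heterozygous one had atypical and typical intervals that did not overlap. With the Arpp21/Ppp1r1b cells alone this also held for *Rac3*, a small GTPase, in the heterozygous library, at −0.59 (−1.03 to −0.18) against 0.06 (−0.01 to 0.12), and for *Map1a*, a microtubule-associated protein, in the homozygous library, at 0.55 (−0.10 to 1.23) against −0.38 (−0.56 to −0.20). The same comparison was not made over all genes. Whether these 16 genes part more often than any others is therefore unknown. *Ctnnb1*, which encodes beta-catenin, differed by −0.27 (−0.85 to 0.27) and 0.19 (−0.14 to 0.53) in atypical and by −0.25 and −0.26 in typical cells. Of the 16 genes that the study names for *Tbr1* mutants 0 were at least 2-fold higher and 3, 3 and 4 lower in atypical than in typical cells, beside 1.24, 1.63 and 2.15% lower among all genes with a UMI, and *Rorb* and *Mef2c* were lower in all 3 libraries. With 1 library per genotype, genotype and library cannot be told apart.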

How the data were processed

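Libraries of tdTomato-positive P5 mPFC cells, 1 per genotype, were made by the authors with 10X 3′ v2 chemistry, and the deposited UMI counts came from Cell Ranger 2.0.1 on mm10, not normalized. The deposited mitochondrial and ribosomal values per cell are a fraction of its UMIs. The deposited neuronal table holds natural log values, ln(1 + UMIs per 10000), despite its name, and gave the raw UMIs when transformed back. Its genes defined the principal components. A table scaled by the authors was not used.

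Raw UMIs were summed per library over atypical and typical cells by the label of the authors. Log2 ratios of CPM carry exact conditional binomial (Clopper-Pearson) 95% intervals and shares exact binomial intervals, which cover counting error only. A gene at 0 was set to a floor of 3 counts over the sum. A gene was called by either of these rules: 2-fold among genes of at least 50 CPM, and 2-fold with an interval beyond 0 among all genes with a UMI. The members and lists were chosen with earlier results of these data known. Named genes were *Arpp21*, *Gng7*, *Meg3*, *Neurod6*, *Nrgn* and *Malat1*, the 10 highest and 10 lowest by the smallest ratio over the libraries, up to 4 genes with the highest mean level of each list and its members past 2-fold in all 3, the 5 with the widest range between libraries, the 10 leading genes of each group of cells, and genes the study names. Others were named after their values were seen. Some genes that these rules name are not reported here. Alternatives were other denominators, edgeR 4.0.16 TMM and DESeq2 1.42.0 size factors, raw UMIs per cell, means over cells, thinning, depth matching, a cut of the top 5% of cells by UMIs, subtraction of free RNA, other filters and libraries left out. The Arpp21/Ppp1r1b cells alone, and removal of the cell richest in hemoglobin, were added after the data were seen. No doublet caller was run. Positions are those of GENCODE on GRCm38. Scripts ran in Python 3.11.15 with scipy 1.17.1 and scikit-learn 1.9.0, and were tested on simulated data.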

Additional observations from a re-analysis of the deposited data

Results flagged for a closer look

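For 5 genes the atypical over typical log2 ratio lay above 0 in 1 library and below 0 in another, beyond the counting interval of each, with the widest range among the 71 of 2177 genes that did so. *Nrgn* spanned 1.99, with −1.80, 0.19 and −1.33 for wild-type, heterozygous and homozygous. *Crym*, a thyroid hormone-binding protein of deep-layer neurons, spanned 2.45, with −0.13, −1.23 and 1.22 from 45, 6 and 100 UMIs. *S100b*, a calcium-binding protein, spanned 1.88, with −1.22, 0.65 and −0.34. *Ptpra*, a receptor tyrosine phosphatase, spanned 2.26, with 0.62, −1.64 and −0.45, and *Phb*, a mitochondrial inner membrane protein, spanned 2.09, with 0.54, −1.55 and 0.01. The heterozygous values of *Ptpra* and *Phb* rest on 4 and 5 UMIs. In the Arpp21/Ppp1r1b cells alone the wild-type ratio of *Ptpra* was −0.07 (−0.75 to 0.55) and that of *Phb* 0.24 (−0.35 to 0.78), so neither lay above 0 beyond its interval there. With 1 library per genotype the differences between libraries were not tested.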

How the results depend on the processing

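No paired analysis was possible because no result comes from a test: the atypical label was set from the expression of these cells, so a fit blocked by library would only test what chose them. Each ratio sets atypical against typical cells of the same library. Directions of the 17 genes higher in all 3 libraries held under every denominator, scaling, weighting, thinning, matching and filter on cells tried, except that with the Arpp21/Ppp1r1b cells alone *Malat1* and *Meg3* were below 0 in the heterozygous library, with intervals across 0, and *Xist* had 0 UMIs there, and those of the 15 lower genes held except that *Osbpl1a* was left with no UMIs in the heterozygous library after subtraction of free RNA. Past 2-fold in all 3 libraries stayed 14 of the 17 and 11 of the 15 after thinning, 16 and 10 without the 5% of cells with the most UMIs, 15 and 15 with TMM factors, and 17 and 13 with DESeq2 size factors. The counts of genes past 2-fold depended on the filter. At 20 CPM 102, 118 and 84 genes were higher in the wild-type, heterozygous and homozygous library and 34 in all 3, and 102, 425 and 126 were lower and 25 in all 3. At 100 CPM 14, 19 and 17 were higher (11 in all 3) and 16, 50 and 15 lower (8 in all 3). With no filter beyond 1 UMI 2114, 1858 and 1522 were higher (194) and 718, 997 and 983 lower (59). The wild-type count of lower genes, 28, was 62 with TMM factors, 45 with DESeq2 size factors, 47 after thinning, 48 after subtraction of free RNA and 65 with the Arpp21/Ppp1r1b cells alone, and the heterozygous count of higher genes was 55 after thinning. Leaving out 1 library, between 20 and 22 genes were higher and between 17 and 30 lower in both others, the 30 without the wild-type library. Of the genes past 2-fold in the wild-type library 55.6% were higher, against 27.9% with TMM factors, 40.0% with DESeq2 size factors, 66.7% with raw UMIs per cell, 45.5% after subtraction of free RNA and 30.1% with the Arpp21/Ppp1r1b cells alone. With the genes of the neuronal table as denominator the heterozygous share was 30.4% in place of 19.1% and the homozygous one 56.9% in place of 46.1%, and without mitochondrial, ribosomal protein and *Malat1* UMIs it was 29.3 and 56.9%. The median of all genes shifted by −0.18 with TMM factors and 0.11 with raw UMIs per cell in the wild-type library, and by 0.12 (heterozygous) and 0.10 (homozygous) over the genes of the neuronal table. As shares of all filtered cells the atypical cells were 6.14, 1.56 and 8.28%, which puts the homozygous above the wild-type library. The smaller group overlapped its main form by 102 to 105 of 105 cells under k = 3, 10 components, thinning and centering within libraries, and centering gave 28 homozygous cells in place of 15. The larger group was less stable, since k = 3 put the cells outside the smaller group into 369 and 402 cells. These were 191, 37 and 141 cells with median UMIs of 2200, 2666 and 2119. The others were 36, 58 and 308 cells with 1614, 1540.5 and 1310.5, so this split went with library and depth. With the Arpp21/Ppp1r1b cells alone the ratio fell below 0, with an interval across 0, for *Igfbp5* (−0.36), *Btg2* (−1.53), *Ttc14* (−0.55), *Notch2* (−0.56), *Pdgfra* (−0.25) and *Gadd45g* (−0.53) in the wild-type library and for *Ttc14* (−1.12), *Meg3* (−0.86) and *Malat1* (−0.18) in the heterozygous library, all past 2-fold with an interval beyond 0 in all atypical cells. *Pax6* in the wild-type library, at 0.82 (0.09 to 1.5), turned to −1.76 (−4.07 to −0.16), and *Btg2* in the homozygous library, at 1.03 (−0.41 to 2.26), to −0.73 (−3.85 to 1.25). That setting leaves out the cells rich in these genes. No other cause was tested. Depth limits the heterozygous values most, where several genes rest on under 10 UMIs.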
